A study of Mus musculus with 6 samples.

Results

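The coagulation and fibrinolysis factors of mouse were read on 6 arrays as a set of 36 genes, listed by name from the clotting cascade, its inhibitors, the fibrin-dissolving system and the vitamin K enzymes. Of these, 34 had a named probe set among the 22206 of the array, each with a single probe set, while Klkb1 and Cpb2 were not analysed here. The 3 AAV-PIK3CD arrays (51, 52 and 53) came from male C57BL/6 mice injected as young adults with an adeno-associated virus of serotype 8 that carries mouse PI3Kδ, a catalytic subunit of the lipid kinase PI3K, behind the TBG promoter, which is active in hepatocytes. The 3 AAV-control arrays (48, 49 and 50) came from mice given a control vector. The labels and the study's methods for these arrays call it empty, whereas its results describe EGFP behind the same promoter. The labels name the tissue tumour, as do the study's methods for these arrays. Its results and its mouse methods describe liver sampled some weeks after injection. All 11 measured hepatocyte markers read higher than the array medians, which cannot decide between liver and a tumour of liver, since both can express them. The transgene was thus placed behind a promoter of hepatocytes, while several of the genes described are made by other cells. Nothing in the labels says whether the 3 samples of a group came from separate animals. The p-values of the t-test and the exact permutation test thus rest on the spread between these samples. Those of limma rest on this spread after it is drawn, gene by gene, towards the spread of all probe sets. Those of rank products set the ranks of a gene against shuffles of gene order.

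Clotting proceeds through zymogens that are cut in sequence into active serine proteases. Tissue factor with factor VII starts the cascade, factors VIII and V speed up the steps that activate factor X and prothrombin, and thrombin turns fibrinogen into fibrin. Antithrombin, the protein C pathway and tissue factor pathway inhibitor hold the cascade back, and plasmin dissolves the clot. Hepatocytes secrete most of these proteins into plasma, and several zymogens need a vitamin K-dependent carboxylation to bind membranes. Endothelium, platelets, macrophages and fibroblasts supply most of the remainder, among them von Willebrand factor, thrombomodulin and the plasminogen activators.

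Array medians lay between 4.81 and 4.87 on the log2 scale of the normalised values. Pik3cd read 4.78, 5.14 and 4.86 in AAV-PIK3CD, against 4.66, 4.34 and 4.48 in AAV-control, a difference of 0.43 (SE 0.14) that was higher in 3 of 3 arrays but did not pass over all probe sets (adjusted p = 0.675 by rank products and 0.932 by limma). Whether its probes match the transgene is not stated in the sources used here. Rank products, the test named in the study's methods, called 11 probe sets, 1 higher and 10 lower, and limma called 0. At an unadjusted p under 0.05 the tools gave 1265 and 1127. Pancreatic acinar genes were high in array 51, where the 16 measured had a mean level of 8.08, against 3.99 and 3.92 in the other AAV-PIK3CD arrays and 3.89 to 4.07 in AAV-control.

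The comparison asked whether the clotting genes of the liver differ when PI3Kδ is supplied to hepatocytes. Of the 34 members, 0 passed rank products or limma over all probe sets (lowest adjusted p = 0.936 and 0.932), where rank products called 0.0495% of all probe sets (0.0045% higher and 0.045% lower). At an unadjusted p under 0.05 there were also 0 members by either tool, against 5.7% of all probe sets by rank products (2.86% higher and 2.84% lower) and 5.08% by limma. The members' differences ran from -0.20 for Vkorc1 to 0.26 for Plau, with 18 above zero, 14 below it and Kng1 and Proc at zero. Their median was 0.005, beside -0.007 over all probe sets. Of the members 7 differed by more than 0.1 in size, which is 20.6%, against 51.5% of all probe sets. By more than 0.3 it was 0 members, against 7.32% of all probe sets. These shares varied with level. Over all probe sets above the array median they were 53.9% and 8.02%. At mean values over 10, a limit set after the values were seen, they were 31.7% and 1.76% of 624 probe sets. Of the 17 members at that level, 17.6% differed by more than 0.1.

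**Figure D1:**
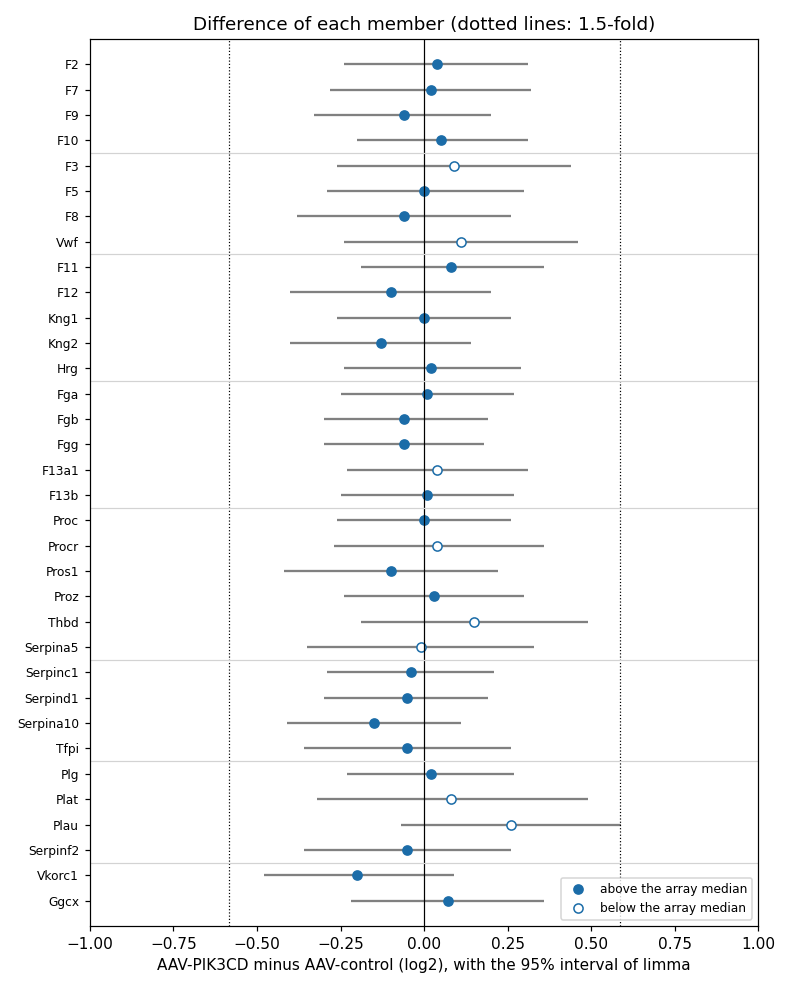
Difference of each of the 34 members, AAV-PIK3CD minus AAV-control (x axis, log2), with the 95% interval of limma as a bar; members run down the page by role, filled points lie above the array median and open points below it. All 34 intervals hold zero, and only that of Plau reaches past the dotted line of a 1.5-fold change.

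The intervals give the precision of these arrays. For 33 of the 34 members the limma interval lay within a 1.5-fold change in either direction, which held for 84.9% of all probe sets, and for 34 of 34 it lay within 2-fold. The median interval reached 0.28 log2 units to either side of the difference. These are intervals for single genes and are not adjusted for the number of members. The exception at 1.5-fold was Plau, with an interval from -0.07 to 0.59.

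The vitamin K-dependent zymogens prothrombin (F2), factor VII (F7), factor IX (F9) and factor X (F10) had differences between -0.06 and 0.05. F9, the protease that factor VIII assists, read 9.68, 9.73 and 9.60 in AAV-PIK3CD and 9.80, 9.61 and 9.79 in AAV-control. Its 3 AAV-PIK3CD values lay below the control mean, yet the lowest control was within their range (difference -0.06, SE 0.12). F10, which forms the protease that cuts prothrombin, read 10.40, 10.35 and 10.34 in AAV-PIK3CD and 10.21, 10.37 and 10.35 in AAV-control (difference 0.05, SE 0.12). The groups overlapped for both genes. F2 differed by 0.04 (SE 0.12) and F7, the partner of tissue factor, by 0.02 (SE 0.14). F7, F10 and the protein Z gene (Proz) are direct neighbours in the mouse genome, and their differences were 0.02, 0.05 and 0.03.

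Among the cofactors, factor V (F5) and factor VIII (F8) differed by 0.00 (SE 0.13) and -0.06 (SE 0.14). Tissue factor (F3), the membrane protein that starts clotting and is made mainly outside hepatocytes, read 4.34, 4.53 and 4.80 in AAV-PIK3CD and 4.62, 4.56 and 4.21 in AAV-control. The highest and the lowest value fell in different groups, but the ranges overlapped widely (difference 0.09, SE 0.16). Von Willebrand factor (Vwf), the endothelial and platelet protein that carries factor VIII, read 5.06, 5.04 and 4.52 in AAV-PIK3CD and 4.67, 4.87 and 4.75 in AAV-control. Arrays 51 and 52 were above all controls and array 53 below them (difference 0.11, SE 0.16), and without array 53 the difference was 0.29. Beside it, the 12 endothelial markers had a median difference of -0.09, with 4 higher and 8 lower. Their summed level ran from 79.41 to 81.14 in AAV-PIK3CD and from 80.24 to 82.52 in AAV-control, and Stab1 was the marker below the array median. The 8 measured platelet markers summed to between 38.16 and 39.23 in AAV-PIK3CD and between 38.25 and 39.25 in AAV-control, with Ppbp, Gp5 and Gp6 below the array median. Their part in the Vwf values was not tested, and in bulk tissue fewer cells of a type and less RNA per cell cannot be told apart.

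The contact phase genes code for the proteins that start clotting on charged surfaces and release bradykinin. Factor XII (F12), the protease that begins this phase, read 8.61, 9.05 and 8.85 in AAV-PIK3CD and 8.95, 8.97 and 8.89 in AAV-control. Array 51 held its lowest value and array 52 its highest, so the controls lay inside the AAV-PIK3CD range (difference -0.10, SE 0.14). Kng2, a kininogen gene, read 10.61, 10.48 and 10.35 in AAV-PIK3CD and 10.65, 10.63 and 10.55 in AAV-control. No AAV-PIK3CD value was above the control mean, and array 51 lay within the control range (difference -0.13, SE 0.12). Its neighbour and close copy Kng1 differed by 0.00 (SE 0.12), and since probes may bind transcripts of both copies, the split between them is uncertain. Factor XI (F11) differed by 0.08 (SE 0.13). Histidine-rich glycoprotein (Hrg), a plasma protein that binds heparin and plasminogen and lies beside Kng2, differed by 0.02 (SE 0.12).

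Fibrinogen is built from the products of Fga, Fgb and Fgg, which lie side by side on chromosome 3, and factor XIII cross-links the fibrin. The gamma chain gene Fgg was 1 of 2 members whose groups did not overlap. It read 12.79, 12.82 and 12.77 in AAV-PIK3CD, against 12.86, 12.85 and 12.85 in AAV-control, lower in 3 of 3 arrays by 0.06 log2 units (difference -0.06, SE 0.11). Its SDs were 0.03 in AAV-PIK3CD and 0.01 in AAV-control, below the SE of limma, which also draws on the other probe sets. The beta chain gene Fgb read 12.44, 12.36 and 12.38 in AAV-PIK3CD and 12.46, 12.47 and 12.42 in AAV-control, overlapping at arrays 51 and 50 (difference -0.06, SE 0.11). The alpha chain gene Fga differed by 0.01 (SE 0.12). The exact permutation test for Fgg gave p = 0.1, the smallest that 3 against 3 allows, with an adjusted p of 1 (rank products) and 0.973 (limma). The highest value of any probe set on an array was between 13.22 and 13.30, so the fibrinogen genes lay close to the top of the scale, and whether differences are compressed there was not tested. Factor XIII subunits F13b, made in liver, and F13a1, made in macrophages and platelet precursors, differed by 0.01 (SE 0.12) and 0.04 (SE 0.12). The 11 measured macrophage markers had a median difference of -0.12 and summed levels of 75.20 to 77.53 in AAV-PIK3CD and 76.04 to 79.19 in AAV-control, with 0 of them below the array median.

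The promoters of the fibrinogen cluster are shown because hepatocytes express the 3 genes as a cluster, and Fgg was apart between the groups whereas Fga and Fgb overlapped. Each sequence is the 250 bases before the RefSeq start in GRCm38.p6, 5′ to 3′ on the strand of the gene: Fgg at chr3:83007474-83007723 (plus strand), Fga at chr3:83025903-83026152 (plus strand) and Fgb at chr3:83049864-83050113 (minus strand). Capitals mark letters of HNF1 (GTTAAT or its reverse complement ATTAAC), HNF4 (CAAAGTNCA or TGNACTTTG) and C/EBP (TTGCNNAA or TTNNGCAA), factors that act in hepatocytes. The HNF1 letters are only a part of its full site.
Fgg: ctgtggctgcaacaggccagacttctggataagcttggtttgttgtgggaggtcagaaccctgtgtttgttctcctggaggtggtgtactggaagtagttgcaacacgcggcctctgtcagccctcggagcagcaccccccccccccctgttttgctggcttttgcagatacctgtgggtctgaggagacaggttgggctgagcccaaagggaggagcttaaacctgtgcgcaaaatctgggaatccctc
Fga: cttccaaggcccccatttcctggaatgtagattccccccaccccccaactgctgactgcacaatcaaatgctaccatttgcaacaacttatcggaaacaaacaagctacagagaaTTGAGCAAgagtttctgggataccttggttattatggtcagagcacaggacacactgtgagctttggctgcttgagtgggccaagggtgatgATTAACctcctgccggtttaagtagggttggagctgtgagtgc
Fgb: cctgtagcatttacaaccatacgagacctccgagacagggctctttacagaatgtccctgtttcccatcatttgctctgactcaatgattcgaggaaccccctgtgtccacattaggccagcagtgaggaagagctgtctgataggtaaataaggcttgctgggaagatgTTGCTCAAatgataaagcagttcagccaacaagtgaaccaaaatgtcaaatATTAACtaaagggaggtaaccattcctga
Fga held the HNF1 letters from 43 bases and the C/EBP letters from 135 bases before the start, and Fgb held them from 29 and 80 bases before it. Fgg held 0 of the searched letters in this window. Whether the letters relate to the differences between groups was not tested.

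Serpind1, which codes for heparin cofactor II, an inhibitor of thrombin, was the other member whose groups did not overlap, and F9 is shown beside it as the single member with the HNF4 letters. The windows are chr16:17331121-17331370 and chrX:59999214-59999463, both on the plus strand.
Serpind1: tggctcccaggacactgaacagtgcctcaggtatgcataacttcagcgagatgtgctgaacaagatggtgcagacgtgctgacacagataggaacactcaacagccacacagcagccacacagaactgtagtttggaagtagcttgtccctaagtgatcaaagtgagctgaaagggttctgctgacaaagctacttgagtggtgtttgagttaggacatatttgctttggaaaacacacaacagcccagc
F9: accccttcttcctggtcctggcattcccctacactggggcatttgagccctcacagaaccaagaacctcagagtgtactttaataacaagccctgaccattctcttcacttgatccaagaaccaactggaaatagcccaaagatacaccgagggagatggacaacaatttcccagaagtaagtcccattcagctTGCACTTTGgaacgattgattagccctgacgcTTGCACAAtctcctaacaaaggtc
In F9 the HNF4 letters began 56 bases and the C/EBP letters 24 bases before the start, and Serpind1 held none of the searched letters. Over the 30 windows found for 28 of the 36 genes, 4 held the HNF1 letters (13.3%, against 6.43% of 32851 windows of all genes), 1 the HNF4 letters (3.33%, against 1.19%) and 10 the C/EBP letters (33.3%, against 9.56%). Among measured members, the C/EBP letters were in 7 of 23 windows of those above the array median (30.4%) and in 2 of 5 of those below it (40%). These shares describe sequences and were not tested.

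The 4 inhibitors of the clotting proteases all had AAV-PIK3CD means slightly below the AAV-control means, with differences from -0.15 to -0.04. All 4 lay above the array median, where 6571 of all 11103 probe sets also had negative differences. Serpind1 read 11.08, 11.11 and 11.11 in AAV-PIK3CD, against 11.15, 11.18 and 11.13 in AAV-control, lower in 3 of 3 arrays (difference -0.05, SE 0.11). The exact permutation test gave p = 0.1, with an adjusted p of 1 (rank products) and 0.976 (limma). Serpina10, the inhibitor of factor X that works with protein Z, read 10.08, 10.18 and 10.13 in AAV-PIK3CD and 10.32, 10.37 and 10.15 in AAV-control. Only array 50 kept these groups from being apart, since its value lay below that of array 52 (difference -0.15, SE 0.12, 95% interval -0.41 to 0.11). Antithrombin (Serpinc1), the main inhibitor of thrombin and factor X, differed by -0.04 (SE 0.11), and tissue factor pathway inhibitor (Tfpi) by -0.05 (SE 0.14). Groups that did not overlap were thus found for 2 of 34 members, both lower, which is 5.88%, beside 9.44% of all probe sets, of which 4.97% were lower and 4.47% higher. Both members lay above the array median, where 695 of 11103 probe sets were apart and lower and 396 apart and higher. By the methods' t-test Fgg and Serpind1, 2 of 34 members, had unadjusted p-values under 0.05, beside 1059 of all 22206 probe sets, and 0 members passed after adjustment.

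**Figure D2:**
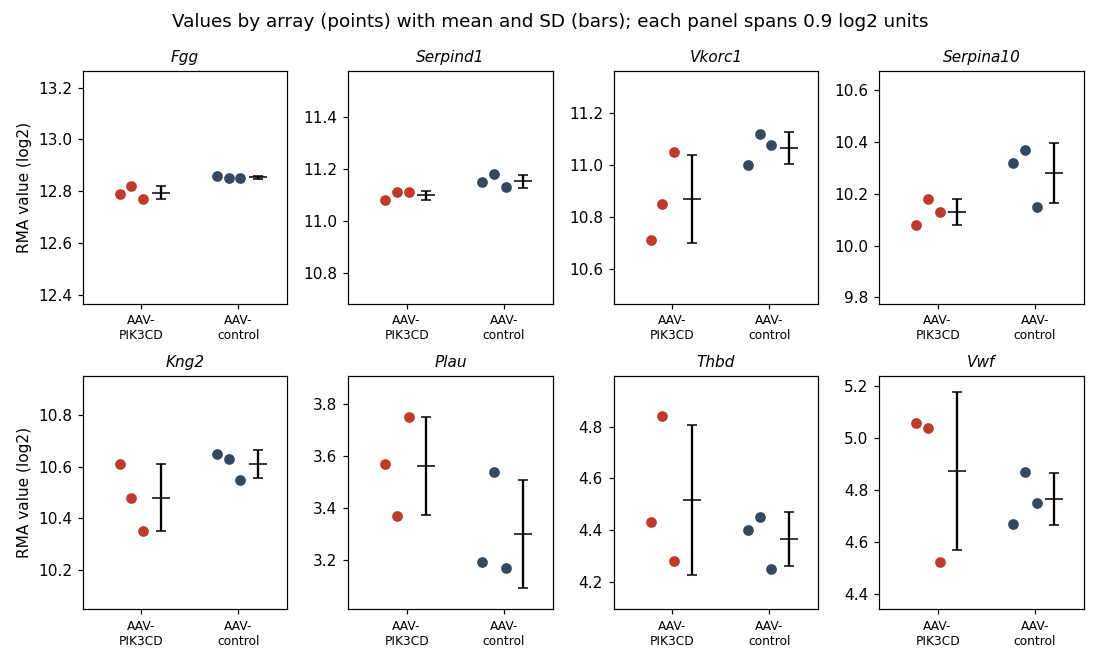
Normalised log2 values of 8 members (y axis) by array, with AAV-PIK3CD left and AAV-control right; points are arrays, the bar beside them the mean and SD of 3 arrays, and each panel spans 0.9 log2 units. Fgg and Serpind1 are apart by under 0.1 log2 units with hardly any spread, whereas Plau, Thbd and Vwf scatter more widely and overlap.

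The protein C pathway inactivates factors V and VIII. Thrombomodulin (Thbd), the endothelial receptor that turns thrombin towards protein C, read 4.43, 4.84 and 4.28 in AAV-PIK3CD and 4.40, 4.45 and 4.25 in AAV-control. Its difference of 0.15 (SE 0.16) came from array 52, without which it was -0.01, and the other AAV-PIK3CD values lay within the control range. Protein S (Pros1), the cofactor of activated protein C, read 8.53, 8.16 and 8.28 in AAV-PIK3CD and 8.36, 8.27 and 8.63 in AAV-control, with widely overlapping groups (difference -0.10, SE 0.15). Protein C (Proc) differed by 0.00 (SE 0.12), its endothelial receptor (Procr) by 0.04 (SE 0.14) and the protein C inhibitor Serpina5 by -0.01 (SE 0.15). Protein Z (Proz) differed by 0.03 (SE 0.12).

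Among the fibrinolytic genes, urokinase (Plau), a plasminogen activator made by many cells other than hepatocytes, had the most positive difference of all members. It read 3.57, 3.37 and 3.75 in AAV-PIK3CD and 3.19, 3.54 and 3.17 in AAV-control. All 3 AAV-PIK3CD values were above the control mean, but array 49 lay within their range (difference 0.26, SE 0.15, exact permutation p = 0.2). Rank products gave it an adjusted p of 0.936 and limma 0.932, and with single arrays left out the difference ran from 0.17 (without array 53) to 0.38 (without array 49). The values lay below the array median, where background limits any fold. Tissue plasminogen activator (Plat) read 4.94, 4.27 and 4.75 in AAV-PIK3CD and 4.40, 4.81 and 4.50 in AAV-control. Arrays 51 and 52 held its highest and lowest values, so its group SD of 0.35 exceeded its difference of 0.08 (SE 0.18). The zymogen plasminogen (Plg) differed by 0.02 (SE 0.11) and its inhibitor alpha 2-antiplasmin (Serpinf2) by -0.05 (SE 0.14).

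The vitamin K cycle supplies the cofactor for carboxylation. Vkorc1, the epoxide reductase that warfarin blocks, had the most negative difference of all members. It read 10.71, 10.85 and 11.05 in AAV-PIK3CD and 11, 11.12 and 11.08 in AAV-control. All 3 AAV-PIK3CD values were below the control mean, and array 53 lay within the control range (difference -0.20, SE 0.13, 95% interval -0.48 to 0.09, exact permutation p = 0.2). Array 51 held its lowest value and the high acinar levels, and without that array the difference was -0.12. The carboxylase Ggcx read 8.94, 8.86 and 8.96 in AAV-PIK3CD and 8.67, 8.82 and 9.05 in AAV-control, where the controls enclosed every AAV-PIK3CD value (difference 0.07, SE 0.13). The enzymes of the cycle thus had differences of opposite sign, neither past the threshold (adjusted p = 0.932 for Vkorc1 and 0.973 for Ggcx by limma).

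**Figure D3:**
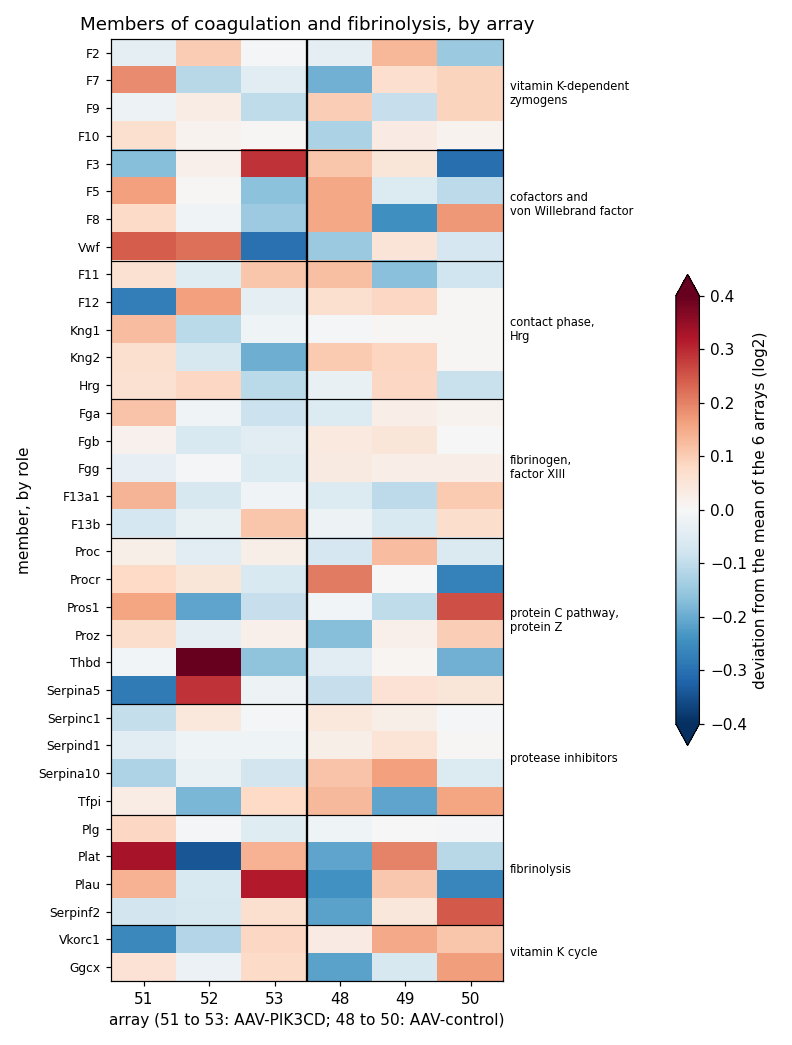
Deviation of each member (rows, by role) from its mean over the 6 arrays (colour, log2, limits at 0.4), with arrays 51 to 53 of AAV-PIK3CD left of the black line and arrays 48 to 50 of AAV-control right of it. Most rows mix both colours on either side of the line, the pale rows of Fgg and Serpind1 are apart, and the strongest colours belong to single genes on single arrays, with 0.40 for Thbd on array 52 as the extreme.

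Set against each other, the arrays held the members at nearly the same level. The members' median deviation from their own mean was 0.059, -0.020 and -0.019 in AAV-PIK3CD arrays 51, 52 and 53, against -0.015, 0.030 and 0.003 in AAV-control arrays 48, 49 and 50. Array 51 held the highest value of 9 members and the lowest of 7. In each of the other arrays 3 to 7 members were highest and 4 to 8 lowest. The mean level of the 34 members was 8.92, 8.89 and 8.88 in AAV-PIK3CD and 8.88, 8.91 and 8.90 in AAV-control.

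Dim members varied more than bright ones, which was not so over all probe sets. The 8 members below the array median were F3, Vwf, F13a1, Procr, Thbd, Serpina5, Plat and Plau, which in the mouse are known mainly from cells other than hepatocytes, and their median SD within groups was 0.214, beside 0.163 for all 11103 probe sets below the median. The 26 above it had a median SD of 0.097, beside 0.173 for all 11103 probe sets above the median. Of the 8 dim members 7 had a positive difference, with a median of 0.088. Over all probe sets below the median the count was 6159 of 11103, with a median of 0.023. Among the 8, only Vwf and Plau kept their sign whichever single array was left out. For the 26 brighter members the median was -0.020, beside -0.040. At mean values over 10, a limit set after the values were seen, where 17 members lay, the median size of the difference was 0.040 for members and 0.063 for all 624 such probe sets, and the median SD 0.082 and 0.112.

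**Figure D4:**
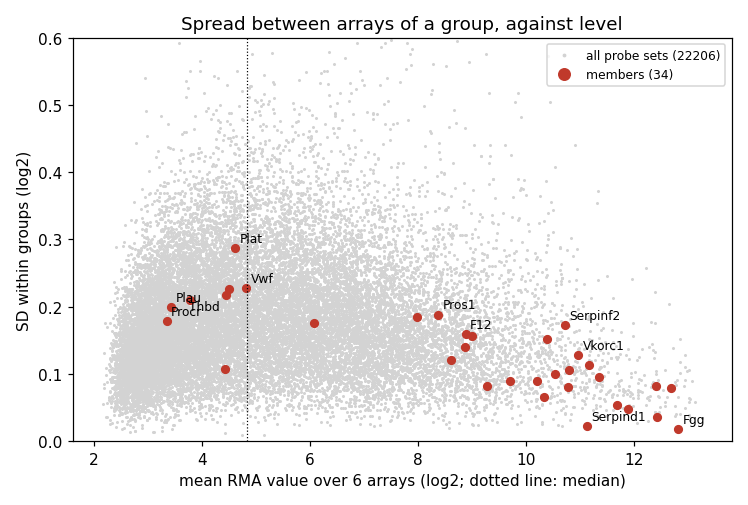
SD within groups (y axis, log2) against the mean value over 6 arrays (x axis, log2) for the 34 members (red) and all 22206 probe sets (grey), of which 85 with an SD over 0.6 are not drawn. Members at the bright end, such as Fgg, vary least, and dim members such as Plat and Vwf vary most.

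**Figure D5:**
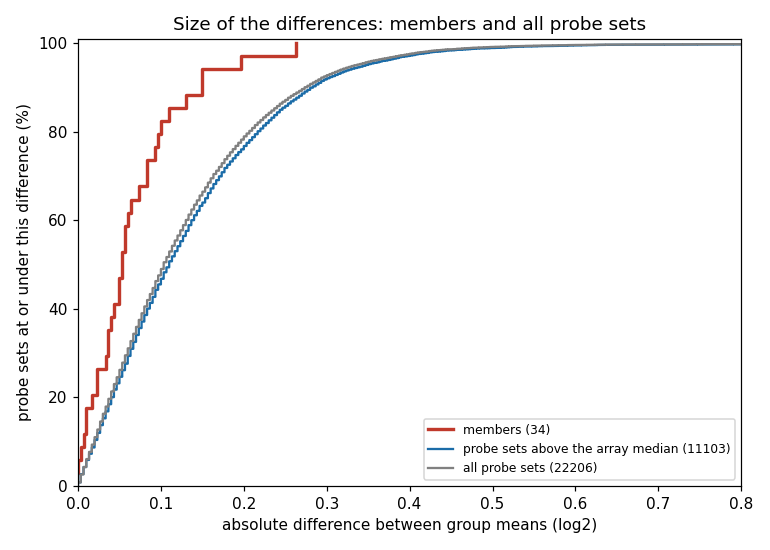
Share of probe sets (y axis, %) at or under a given absolute difference between group means (x axis, log2) for the members (red), probe sets above the array median (blue) and all probe sets (grey); 42 probe sets with a difference over 0.8 are not drawn. All members end by 0.26, and the median size was 0.053 for members, 0.110 for probe sets above the median and 0.103 for all.

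Another 22 genes of the pathway were measured from a list of 25, covering receptors, cargo carriers and further inhibitors. Of these, 0 passed rank products or limma, also at an unadjusted p under 0.05, with 7 differences above zero and 15 below it and a median of -0.032. Of the 22 genes, 16 lay above the array median, where 6571 of all 11103 probe sets had negative differences. The extremes, named after their values were seen, were Mcfd2 and Adamts13. Mcfd2, which with Lman1 carries factors V and VIII out of the endoplasmic reticulum, read 7.38, 7.80 and 8.03 in AAV-PIK3CD and 7.90, 7.99 and 8.10 in AAV-control. Array 51 was lowest and array 53 lay within the control range (difference -0.26, SE 0.16), and without array 51 the difference was -0.08. Its partner Lman1 differed by -0.03 (SE 0.12). Adamts13, the protease that trims von Willebrand factor, read 4.08, 3.97 and 4.62 in AAV-PIK3CD and 3.99, 3.88 and 4.23 in AAV-control, with array 53 highest (difference 0.19, SE 0.18, and -0.01 without array 53).

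Other plasma protein genes of the liver were counted in the same way. Of 25 measured complement genes 7 had positive and 18 negative differences, from -0.14 to 0.24 with a median of -0.047. Of 12 apolipoprotein genes 4 were positive and 8 negative, from -0.16 to 0.10 with a median of -0.027. Of these genes, 24 of the complement list and 12 of the apolipoprotein list lay above the array median. Over all probe sets above it, 6571 of 11103 had negative differences, with a median of -0.040. In both lists 0 genes passed either test. Whether the clotting genes differ from these lists was not tested.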

How the data were processed

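Gene expression was read on Clariom S arrays for mouse from 100 ng RNA each. The deposited log2 values were made by the authors with RMA, which corrects background, equalises the arrays by quantiles and summarises probes, and carry 2 decimals. Software version and genome build are not given in the sources used here. RMA equalises the arrays, so a shift shared by all genes cannot be seen. Arrays have no depth, and 3 per group limit the precision.

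Symbols came from the platform annotation (19572 probe sets with 1 symbol, 2634 unnamed here). Where several sets shared a symbol, the set with the highest mean stood for the gene. Rank products ranked all 9 pairs of an AAV-PIK3CD and an AAV-control array and set the geometric mean rank against 1000 seeded shuffles of gene order. limma 3.58.1 (R 4.3.3) gave differences (AAV-PIK3CD minus AAV-control), SE and 95% intervals. Its SE, intervals and p-values use variances drawn towards those of all probe sets. Benjamini-Hochberg adjustment ran over the 22206 probe sets, with 0.05 as threshold. For single genes, 2-sided exact permutation tests were run.

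Per-array values were given for members apart between groups, members with an unadjusted p under 0.05 by rank products or limma, and the 2 members of each role with the largest difference, and for Pik3cd. The other pathway genes were to be named at an unadjusted p under 0.05. The members, lists, tests and this rule were chosen with earlier results of these data known. Marker lists not described in the report were stellate (median difference 0.00), cholangiocyte (0.16), skeletal muscle (0.39, and 0.17 without array 51), neutrophil (0.11) and erythroid (-0.04).

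On simulated arrays of 22206 probe sets, 50 were changed at each size. Rank products called 0 at 0.25, 2 at 0.5 and 47 at 1 log2 unit, and limma 0, 5 and 32. The members' differences ran from -0.20 to 0.26, near or under the 0.25 at which both tools called 0. The changed probe sets were drawn at random and not matched to the members. The median SD within groups was 0.116 for the members and 0.168 for all probe sets. Whether changes of this size would be called in the members was not tested. Of 22006 unchanged probe sets rank products called 40 and limma 1. The 11 probe sets that rank products called in the deposited values were thus fewer than its 40 false calls in the simulation. limma's 95% intervals held the true value for 94.9%. Alternatives were limma, the methods' t-test, 3 further normalisations, 2 filters on dim probe sets, a single probe set for each symbol, and leaving out each array. Promoters came from RefSeq (GRCm38.p6). Scripts ran under Python 3.11.15 with pandas 2.3.3, scipy 1.17.1 and numpy 2.4.6, and plots were drawn with matplotlib 3.10.9.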

Additional observations from a re-analysis of the deposited data

How the results depend on the processing

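The members called by rank products stayed at 0 of those measured under limma, the methods' t-test, quantile normalization, median centring, cyclic loess, both filters on dim probe sets, a single probe set for each symbol and each of the 6 arrays left out. The filters kept 32 and 26 of the 34 members. The members' median difference of 0.005 moved by less than the spread between arrays under the 3 normalisations, both filters and a single probe set for each symbol, from -0.028 with median centring to 0.034 with cyclic loess, and from -0.021 to 0.011 with single arrays left out. In 22 of the 34 members the sign changed when some single array was left out, so most directions are not settled. Members with groups apart numbered 5 with median centring (10.8% of all probe sets) and 0 with cyclic loess (9.55%), and 4 to 7 with an array left out, where 2 values against 3 separate more often (17.6% to 21.6% of all probe sets). The 11 calls over all probe sets became 0 with limma, 0 with the methods' t-test (1059 at an unadjusted p under 0.05), 5 and 2 without the dimmest 25% and 50%, and 3 to 11 with an array left out. The adjusted p of Pik3cd stayed above 0.05 in all settings that kept its probe set. The cause of these changes was not tested. Background limits the dim members, fibrinogen lies near the top of the scale. No paired analysis was possible because the groups share no replicate numbers, and the labels give no batch.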
